A study of Mus musculus with 2 samples.

Results

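The genes described here were 9 members of the major histocompatibility complex (MHC) class II presentation pathway, H2-Aa, H2-Ab1, H2-Eb1, Cd74, H2-DMa, H2-DMb1, H2-DMb2, H2-Oa and Ciita, chosen by name from the 27998 genes listed for each single-cell library. They were followed in the stromal vascular fraction (SVF, the non-adipocyte cells released by digesting fat) of mouse epididymal white adipose tissue. One library came from C57BL/6 mice given a low-fat diet (LFD) for 24 weeks from 6 weeks of age, and the other from C57BL/6 mice given a high-fat diet (HFD) over the same period. The diets were taken from each sample's own treatment label and title, since a protocol text shared by both samples names the low-fat diet for each, and the methods describe the animals as male C57BL/6J. No other treatment or allele is stated for either group. With 1 library for each diet, and the number of mice in each not given in the sources used here, no difference between diets could be tested, and every interval below is a 95% interval that covers counting error only.

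MHC class II molecules are pairs of an α and a β chain that carry peptides from ingested material to the cell surface, where CD4+ T cells read them. The invariant chain, encoded by Cd74, holds the new pair together and blocks its groove until proteases trim it, and the DM heterodimer then exchanges the remaining fragment for a peptide. The DO heterodimer restrains DM, mainly in B cells and some dendritic cells. Ciita is the master coactivator that acts on the shared promoter elements of these genes. In fat, macrophages, dendritic cells and B cells are the usual bearers of class II.

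Barcodes with at least 200 detected genes numbered 1057 in the LFD library and 1117 in the HFD library, with 7279955 and 8389196 unique molecular identifiers (UMIs, which count captured mRNA molecules) and medians of 6523 and 6598 UMIs. The libraries shared 0 barcodes. Cells were put in classes by marker UMIs that do not include any of the 9 genes. Macrophages had at least 10 UMIs of C1qa, C1qb and C1qc together. Within them, resident-marker macrophages had at least 3 UMIs of Cd209f, Cd209d, Fcna and Folr2 together, Cd9+ macrophages had Cd9 but not those markers, and a last subclass had neither. Dendritic cells had fewer C1q UMIs and at least 1 UMI of Cd209a, or of Clec9a and Xcr1 together. Levels are given in CPM, 1 CPM being 0.0001% of the UMIs of a class. A list of 5 further macrophage markers summed to 3513 CPM in LFD and 2087 CPM in HFD macrophages, and to 357 and 306 CPM in dendritic cells. The dendritic cell receptor gene Flt3 stood at 68.1 CPM in LFD and 77.2 CPM in HFD dendritic cells, and at 0 UMIs in macrophages. In LFD, the 20 cells chosen by Cd209a alone held 1 Flt3 UMI, against 10 in the 9 chosen by Clec9a or Xcr1 alone. Clec10a, also used as a dendritic cell marker, went against the label, with 1035 and 391 CPM in macrophages and 193 and 141 CPM in dendritic cells.

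Of the 9 genes, 7 lie within the class II region of chromosome 17 (GRCm38, GENCODE M21), and all 9 are annotated as protein coding. In the order of the chromosome these are H2-Oa (chr17:34092340-34095234, plus strand), H2-DMa (chr17:34119541-34139101, plus), H2-DMb2 (chr17:34143307-34151555, plus), H2-DMb1 (chr17:34153072-34160230, plus), H2-Ab1 (chr17:34257689-34269419, plus), H2-Aa (chr17:34282744-34287823, minus) and H2-Eb1 (chr17:34305867-34316674, plus). Cd74 and Ciita lie on other chromosomes, Ciita on chromosome 16 (chr16:10480059-10528418, plus). The DM β chains H2-DMb1 and H2-DMb2 are neighbouring, closely similar genes, so the split of their reads is uncertain.

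Class II promoters are known for an X and a Y box, which bind the RFX and NF-Y complexes that Ciita joins. RefSeq promoter windows (GRCm38.p6, 250 bases before to 50 bases after the start) were matched for 6 of the 9 genes. Stretches of 4 of them are shown because they hold the letters in question in genes with very different levels in these cells. Capitals mark CTGATTGG, or the shorter Y-box core ATTGG that it contains where only that was found, and AGCAAC, an X-box half-site.
H2-Aa: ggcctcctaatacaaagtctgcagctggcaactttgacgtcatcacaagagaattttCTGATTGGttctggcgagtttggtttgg
H2-Eb1: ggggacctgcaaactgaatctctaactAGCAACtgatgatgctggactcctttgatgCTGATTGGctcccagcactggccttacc
H2-Oa: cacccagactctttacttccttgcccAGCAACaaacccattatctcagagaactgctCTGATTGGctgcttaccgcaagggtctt
H2-DMb2: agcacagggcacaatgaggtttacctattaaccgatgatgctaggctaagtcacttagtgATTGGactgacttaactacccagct
The stretches lie at chr17:34287847-34287931 on the minus strand for H2-Aa, and on the plus strand at chr17:34305748-34305832 for H2-Eb1, chr17:34092276-34092360 for H2-Oa and chr17:34145099-34145183 for H2-DMb2. Starts here are those of RefSeq and differ from the GENCODE gene ends given above, so that the H2-DMb2 stretch lies within the GENCODE gene and the H2-Oa stretch runs over its start. The core began 48 bases before the RefSeq start in H2-Aa, 59 in H2-Eb1, 43 in H2-Oa and 90 in H2-DMb2, and AGCAAC began 92 bases before it in H2-Eb1 and 77 in H2-Oa. The core was also found, in stretches not shown, 61 bases before the start in H2-DMb1 and 198 in a window of H2-DMa. On the other strand it lay at 35 in H2-Eb1. In LFD and HFD macrophages, H2-DMb1 had 290 and 403 CPM and H2-DMb2 had 6.78 and 2.45 CPM. Read on either strand, ATTGG occurs in 37.4% of all 32851 promoter windows of this length, CTGATTGG in 4.10% and AGCAAC in 14.8%. H2-Aa, abundant in macrophages, and H2-Oa, which had no UMI in macrophages, therefore held the same 8 letters at a similar distance from their starts.

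In whole libraries, the 9 genes took 0.765% of UMIs in LFD (0.759 to 0.771%) and 1.08% in HFD (1.07 to 1.08%), a ratio of 1.41 (1.39 to 1.42). Most of this mRNA lay in macrophages, which held 63.3% of all class II UMIs in LFD and 58.7% in HFD while making up 21.6% and 28.2% of barcodes. The source within macrophages differed between the diets. Resident-marker macrophages held 52.2% of the class II UMIs in LFD and 19.1% in HFD. Cd9+ macrophages held 1.69% in LFD and 19.6% in HFD, and macrophages with neither marker held 9.38% and 19.9%. Dendritic cells held 15.1% and 20.1%, from 2.93% and 4.83% of barcodes. B cells held 3.38% in LFD and 0.651% in HFD. Barcodes of no class held 7.95% and 14.0%. The HFD shares depend on where cells with both Cd9 and resident markers are filed, since resident-marker macrophages without Cd9 held 11.0% and all macrophages with Cd9 held 27.8%. In LFD, by contrast, resident-marker macrophages held the most with or without those cells.

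**Figure D1:**
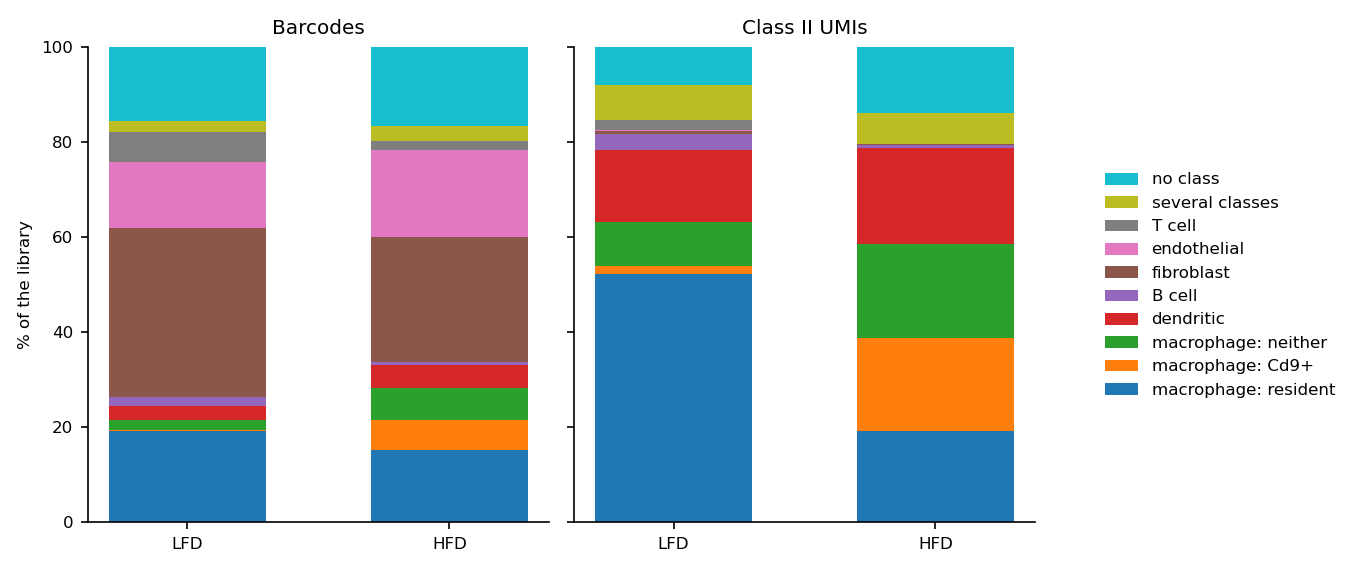
Stacked bars of the percent of barcodes and of the percent of class II UMIs (the 9 genes summed) that each cell class held in the LFD and the HFD library. Resident-marker macrophages went from 52.2% of class II UMIs in LFD to 19.1% in HFD, while their share of barcodes went from 19.2% to 15.3%.

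The make-up of the macrophages differed as well. Of the macrophages, 89.0% were resident-marker, 0.877% Cd9+ and 10.1% neither in LFD, against 54.3%, 21.9% and 23.8% in HFD. The part of cell release and capture in these shares was not tested.

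Cd74 was the most abundant member in every presenting class, and ordered the classes with dendritic cells at the top and stromal cells at the bottom. As UMIs were counted from 3′ tags, CPM needed no scaling by gene length. In LFD, Cd74 had 19906 CPM in dendritic cells, 12635 CPM in macrophages with neither marker, 11424 CPM in B cells, 9247 CPM in resident-marker macrophages, 40.4 CPM in fibroblasts and 11.6 CPM in endothelial cells. In HFD, it had 18689.6 CPM in dendritic cells, 14977 CPM in macrophages with neither marker, 10549 CPM in B cells, 9887 CPM in Cd9+ macrophages, 4388 CPM in resident-marker macrophages, 10.2 CPM in fibroblasts and 17.5 CPM in endothelial cells. The intervals of neighbouring classes in this order did not overlap, with 3 exceptions. In LFD, B cells (10719.9 to 12163 CPM) overlapped macrophages with neither marker (12081 to 13207 CPM), and in HFD B cells (9332 to 11880 CPM) overlapped Cd9+ macrophages, and fibroblasts (6.63 to 15.1 CPM) overlapped endothelial cells (11.3 to 25.8 CPM). Cd9+ macrophages are left out of the LFD order, where they numbered 2. H2-Aa, H2-Ab1 and H2-Eb1 differed from this order in B cells. For all 3, B cells stood below resident-marker macrophages in LFD and below Cd9+ macrophages in HFD. The H2-Eb1 value of HFD B cells rested on 101 UMIs in 9 cells, and its interval overlapped that of Cd9+ macrophages (4181 CPM). H2-Eb1 was level in HFD dendritic cells (7112 CPM) and macrophages with neither marker (7170.4 CPM).

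**Figure D2:**
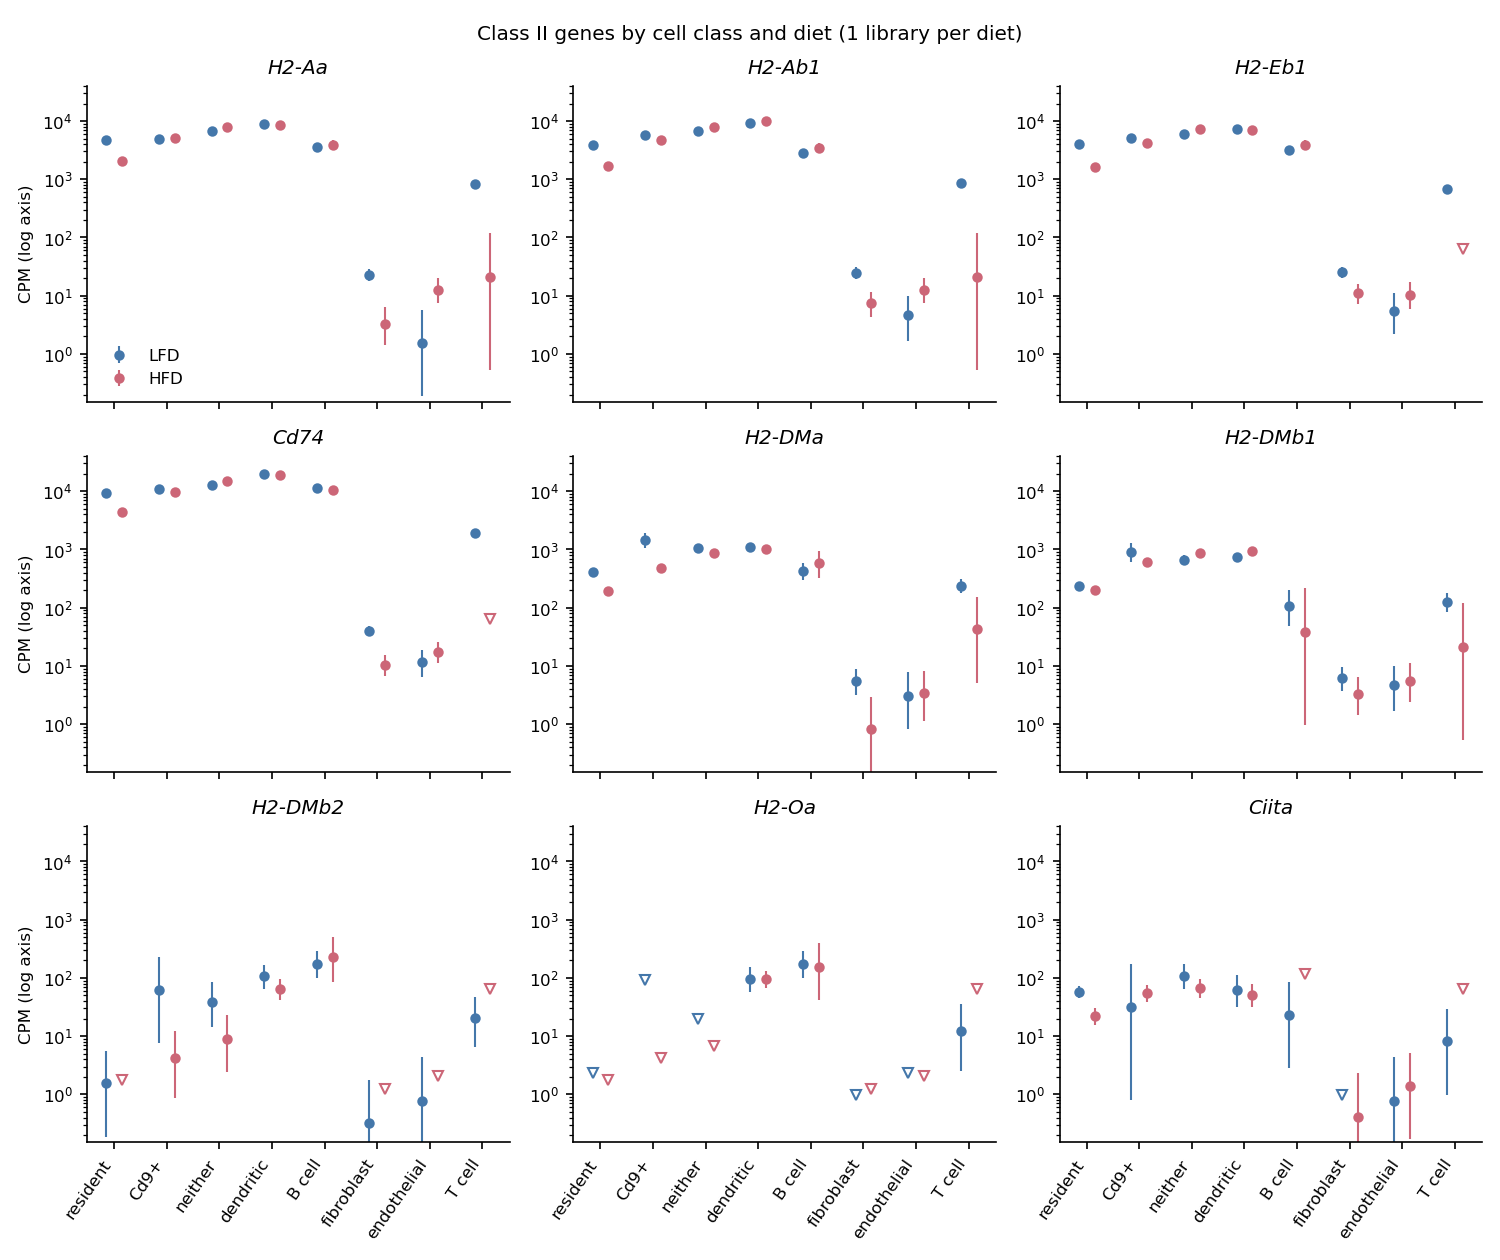
CPM (log axis) of each of the 9 genes in each cell class of the LFD and the HFD library. Points are summed values, bars 95% Poisson intervals, and open triangles the limit of 3 counts where no UMI was found. H2-Aa, H2-Ab1, H2-Eb1 and Cd74 stand highest, in dendritic cells, macrophages and B cells, whereas H2-Oa is at 0 UMIs in macrophages of both libraries.

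Over all macrophages, class II mRNA was lower in HFD than in LFD, at 2.39% of UMIs in 228 LFD cells and 1.85% in 315 HFD cells, a ratio of 0.775 (0.765 to 0.786). The α chain gene H2-Aa had 4922 CPM in LFD and 3759 CPM in HFD, a ratio of 0.764 (0.741 to 0.787). H2-Ab1, the β chain that pairs with it, had 4236 and 3403 CPM. H2-Eb1, the β chain of the other isotype, whose α partner C57BL/6 mice lack in functional form, had 4243 and 3129 CPM. Cd74 had 9642 and 7427 CPM, a ratio of 0.770 (0.754 to 0.787). Of the 7 genes with at least 50 UMIs over both libraries, 0 were past 2-fold in either direction, where 5.43% of all 7108 genes that met this floor were at least 2-fold higher and 5.94% were at most 0.5-fold. The direction over all macrophages depended on the cells and on the weight given to each. The ratio was 0.980 as a mean of per-cell values, 1.01 with every cell thinned to 1000 UMIs, and 1.07 in the 49 LFD and 71 HFD macrophages that met the limits on genes and mitochondrial UMIs stated in the methods.

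The lower level in HFD was seen in the resident-marker macrophages. In these cells, class II mRNA took 2.26% of UMIs in LFD (203 cells) and 1.02% in HFD (171 cells), a ratio of 0.451 (0.443 to 0.460). H2-Aa had 4709 CPM in LFD (4591 to 4829) and 2080.1 CPM in HFD (2012 to 2150), a ratio of 0.442 (0.424 to 0.461). H2-Ab1 had 3908 and 1698 CPM, a ratio of 0.434 (0.415 to 0.455). H2-Eb1 had 4021 and 1613 CPM, a ratio of 0.401 (0.383 to 0.420). These 3 chain genes were thus lower in HFD by similar factors. Cd74 had 9247 and 4388 CPM, a ratio of 0.475 (0.461 to 0.489). H2-DMa, the DM α chain, had 417 and 194 CPM, a ratio of 0.465 (0.404 to 0.534). Ciita was counted at 74 UMIs in LFD and 37 in HFD, a ratio of 0.379 (0.248 to 0.570). H2-DMb1 stood apart from these, with 232 and 198 CPM and a ratio of 0.855 (0.730 to 1.003) that was 1.07 with thinning. Of the 7 genes with at least 50 UMIs, 6 were at most 0.5-fold, where 5.14% of all 6053 genes were, and 0 were at least 2-fold higher, where 5.63% were. Marker lists also differed in these cells, with the macrophage list at 3797 CPM in LFD and 2517 CPM in HFD and the dendritic list at 1416 and 747 CPM, and their part in the result was not tested. The class II genes' median log2 ratio was -1.18, against -0.0061 over all genes.

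**Figure D3:**
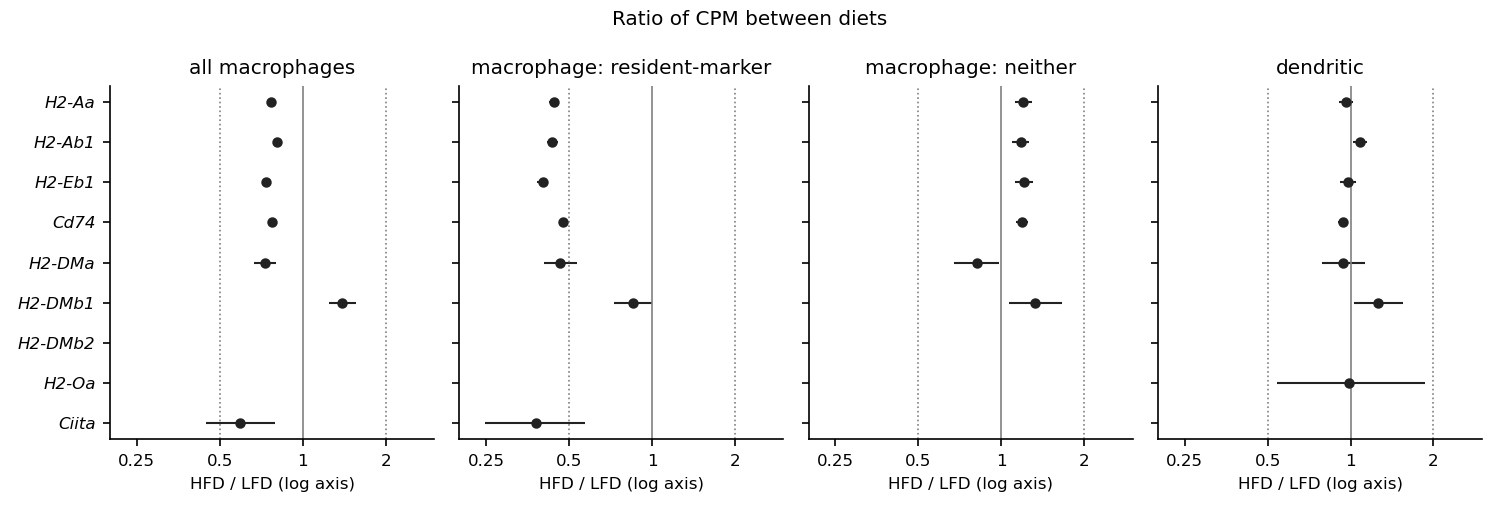
Ratio of HFD to LFD CPM (log axis) of the class II genes with at least 50 UMIs in each class, with 95% intervals, a solid line at 1 and dotted lines at 0.5 and 2. In resident-marker macrophages 6 of 7 genes lie below 0.5 and H2-DMb1 at 0.855, whereas in dendritic cells and in macrophages with neither marker the ratios lie nearer to 1.

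The size of this difference depended on which cells were used and on how they were weighted. With each cell weighted equally, the resident-marker ratio of the class II total was 0.574. It was 0.587 with cells thinned to 1000 UMIs, and 0.674 in the 40 LFD and 24 HFD cells that met the limits in the methods. Under each of these 3 settings 0 of the 7 genes were at most 0.5-fold, and the share of all genes was not counted under them. The direction of the total held in all of them.

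Single resident-marker cells spread widely in both libraries. The class II share of a cell's UMIs had a median of 2.01% in LFD, with quartiles at 0.632% and 3.58%, and a median of 0.688% in HFD, with quartiles at 0.114% and 1.95%. The distributions overlapped. When thinned to 1000 UMIs, 96.5% of LFD and 83.0% of HFD resident-marker cells still had at least 1 class II UMI. The same measure gave 5.95% and 3.103% in fibroblasts, which should lack class II, with 23.2% and 22.3% before thinning at medians of 8500 and 7905.5 UMIs. Most resident-marker macrophages of the HFD library therefore had class II mRNA above the fibroblast background, at a lower level.

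**Figure D4:**
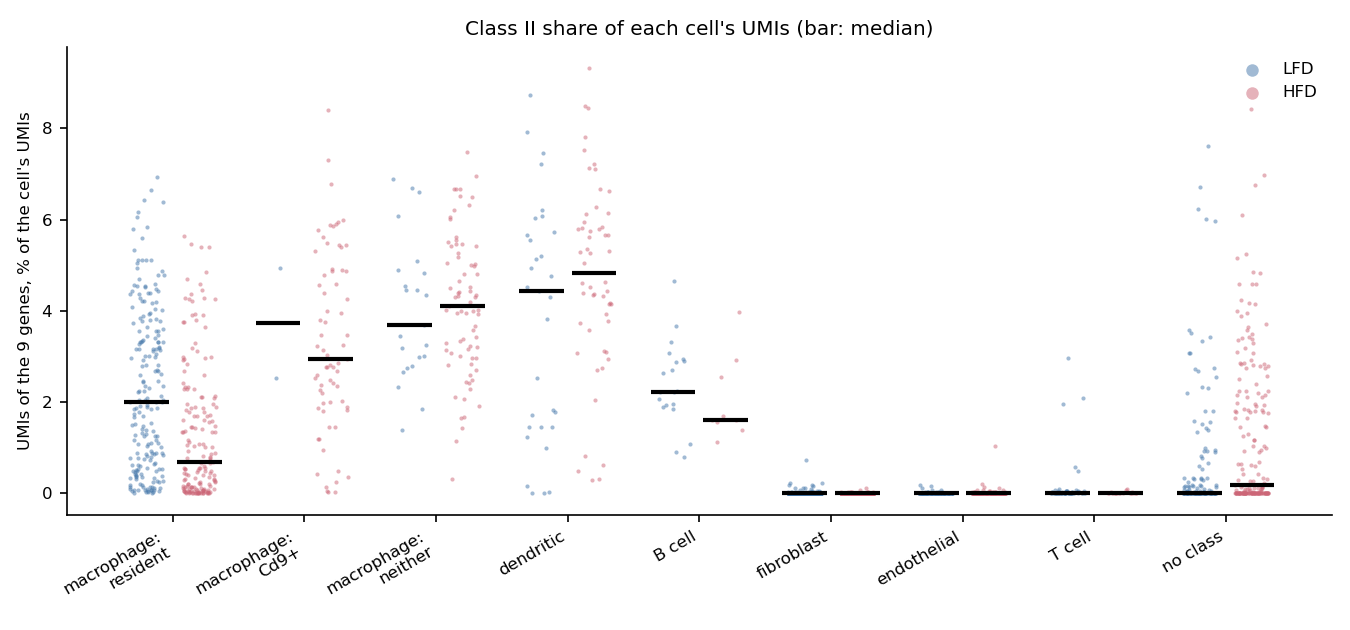
Percent of each cell's UMIs taken by the 9 class II genes, by class and library, with 1 dot for a cell and a bar at the median. Medians are 2.01% in LFD and 0.688% in HFD resident-marker macrophages, and 4.43% and 4.83% in dendritic cells.

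The level was lowest in the cells richest in resident marker, without a steady order below them. Strata of the summed Cd209f, Cd209d, Fcna and Folr2 UMIs were chosen after seeing the data. From the lowest to the highest stratum (0 to 2, 3 to 9, 10 to 19, 20 to 39, and 40 or more UMIs), class II mRNA took 3.30%, 4.23%, 3.29%, 2.20% and 1.51% of UMIs in LFD macrophages, and 3.07%, 1.31%, 1.05%, 1.29% and 0.437% in HFD macrophages. The highest stratum had the lowest share in both libraries, and within each of the 4 strata of at least 3 UMIs the HFD value was below the LFD one. Timd4, a phosphatidylserine receptor of long-lived resident macrophages, also marked cells with less class II. Resident-marker cells with Timd4 stood at 1.50% in LFD (78 cells) and 0.398% in HFD (31 cells), and those without it at 2.78% (125 cells) and 1.12% (140 cells). Trem2, a lipid receptor of macrophages in obese fat and likewise looked up after seeing the data, was detected in 75 LFD (36.9%) and 136 HFD (79.5%) resident-marker cells, which stood at 1.86% and 0.874%. Resident-marker cells without Trem2 stood at 2.53% in LFD (128 cells) and 2.09% in HFD (35 cells), a ratio of 0.826 against 0.451 over all resident-marker cells. The ratio was thus nearer to 1 in cells without Trem2, which made up 63.1% of the LFD and 20.5% of the HFD resident-marker cells. A sum of UMIs can itself be larger in deeper cells, and the strata of resident-marker UMIs also differed in depth. The highest stratum was the deepest in both libraries, with medians of 7579 UMIs in LFD and 7894 in HFD, without a steady rise below it. The lowest stratum had 5168 and 6581, and that of 20 to 39 UMIs had 5901 and 6048.5.

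**Figure D5:**
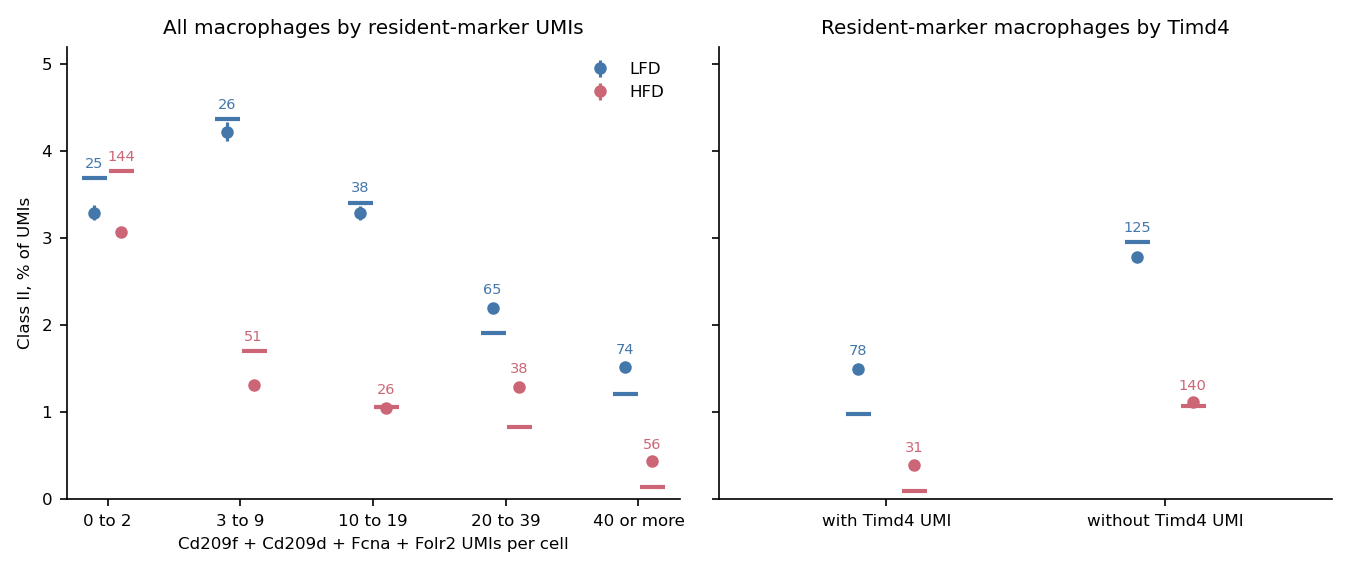
Class II percent of UMIs in macrophages by stratum of resident-marker UMIs (Cd209f, Cd209d, Fcna and Folr2 summed) in each library. Dots are pooled values, dashes per-cell medians and numbers the cells in each stratum. The pooled value is 1.51% in the LFD and 0.437% in the HFD stratum of 40 or more UMIs.

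Depth, in ranges also chosen after seeing the data, moved with the result. Among resident-marker cells with fewer than 5000 UMIs, class II mRNA took 1.71% in LFD (47 cells) and 1.88% in HFD (22 cells). From 5000 to 10000 UMIs it took 2.41% (145 cells) and 1.31% (114 cells), and at 10000 UMIs or more 1.74% (11 cells) and 0.644% (35 cells). The HFD level was thus lower in the cells of at least 5000 UMIs and not in the shallower ones. The proliferation gene Mki67, looked up after seeing the data, was detected in 4 LFD and 21 HFD resident-marker cells, with class II at 3.42% and 0.669%. The 21 HFD cells had a median of 20295 UMIs. Without Mki67, the 150 HFD cells stood at 1.18%. Cd9 was present in 46 of the HFD resident-marker cells, which stood at 0.877%, and absent from 125, which stood at 1.16%. The part of Trem2-bearing cells, depth, cell division and doublets in the result was not tested. Scrublet, a doublet caller, marked 1.51% of LFD and 1.70% of HFD barcodes and 0 macrophages.

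Macrophages with neither marker set had more class II mRNA than resident-marker cells in both libraries and showed no lower level in HFD. Class II took 3.37% of their UMIs in LFD (23 cells) and 3.98% in HFD (75 cells), a ratio of 1.18 (1.14 to 1.22). Ccr2, a receptor of monocyte-derived cells and the one gene of the 4 on the monocyte list with more than 9 UMIs here, stood at 1569 CPM in LFD and 752 CPM in HFD in these cells, against 73.8 and 25.4 CPM in resident-marker cells. Dendritic cells (652 and 628 CPM) and T cells (375 and 256 CPM) carried it too, and its part in these comparisons was not tested. H2-Aa had 6689 CPM in LFD and 8051 CPM in HFD, and H2-Ab1 had 6637 and 7814 CPM. H2-Eb1 had 5920.4 and 7170.4 CPM. Cd74 had 12635 and 14977 CPM. All 4 were higher in HFD by ratios of 1.18 to 1.21, although Cd74 was lower in HFD with the limits of the methods (log2 ratio -0.22) and as a mean of per-cell values (-0.013). H2-DMa went the other way, with 1052 and 856 CPM, a ratio of 0.814 (0.676 to 0.983), and H2-DMb1 had 652 and 865 CPM, a ratio of 1.33 (1.06 to 1.67). Of the 6 genes with at least 50 UMIs, 0 were past 2-fold, where 5.39% of 1761 genes were at least 2-fold higher and 3.07% at most 0.5-fold. The higher total was not seen with the limits of the methods, where its log2 ratio was -0.0049. Resident-marker cells had 0.670 times the class II share of macrophages with neither marker in LFD and 0.256 times in HFD.

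Cd9+ macrophages numbered 2 in LFD and 69 in HFD, so their level was compared within the HFD library only. Class II took 2.49% of their UMIs, 0.626 times the share of HFD macrophages with neither marker (0.613 to 0.639). This subclass leaves out 46 HFD cells with Cd9 that also carried resident markers. With them, the 115 HFD macrophages with Cd9 stood at 1.62%, a ratio of 0.407. Ccr2 stood at 171 CPM in Cd9+ cells, against 752 CPM in macrophages with neither marker, and its part was not tested. H2-Aa had 5042 CPM in Cd9+ cells against 8051 CPM, and Cd74 had 9887 CPM against 14977 CPM. The 7 genes with at least 50 UMIs had ratios from 0.560 to 0.823. Of these, 0 were at most 0.5-fold, where 2.30% of 3129 genes were, and 0 were at least 2-fold higher, where 5.24% were. With the mean of per-cell values the ratio was 0.801, and with the limits of the methods it was 0.956. Without resident-marker cells, Cd9+ macrophages in HFD thus lay between resident-marker macrophages and macrophages with neither marker.

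Dendritic cells had the highest class II share of any class in both libraries and, in summed UMIs, nearly the same value in each. It was 4.76% of UMIs in LFD (31 cells) and 4.67% in HFD (54 cells), a ratio of 0.981 (0.956 to 1.01). H2-Aa had 9023 and 8697 CPM, a ratio of 0.964 (0.908 to 1.02). H2-Ab1 had 9289 and 10037 CPM, a ratio of 1.08 (1.02 to 1.15). Cd74 had 19906 and 18689.6 CPM, a ratio of 0.939 (0.902 to 0.978) that turned above 1 with every barcode, as a mean of per-cell values and with thinning. Of the 7 genes with at least 50 UMIs, 0 were past 2-fold, where 2.60% of 1499 genes were at least 2-fold higher and 1.13% at most 0.5-fold. The mean of per-cell values gave a ratio of 1.25, and the 7 genes then had ratios from 1.20 to 1.63. With every barcode that met the class they ran from 1.12 to 1.64. The lower quartile of the cells' class II share was 1.46% in LFD and 3.74% in HFD. Among these cells, those chosen by Cd209a alone and those chosen by Clec9a or Xcr1 alone, which mark cross-presenting dendritic cells, had close totals. The Cd209a cells stood at 4.65% in LFD (20 cells) and 4.68% in HFD (31 cells), and the Clec9a or Xcr1 cells at 4.66% (9 cells) and 4.53% (21 cells). Per-cell medians were 3.53% in LFD and 4.43% in HFD for the Cd209a cells, and 4.43% and 4.63% for the Clec9a or Xcr1 cells. Flt3 was counted at 1 and 9 UMIs in the Cd209a cells and at 10 and 19 UMIs in the fewer Clec9a or Xcr1 cells. H2-DMb1 differed between the sets in HFD beyond counting error, with 1112 CPM in Cd209a cells (976 to 1262) and 697 CPM in Clec9a or Xcr1 cells (574 to 839), but not in LFD, with 749.6 CPM (589.6 to 939.7) and 765 CPM (558 to 1023).

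Against all macrophages, dendritic cells had 1.99 times the class II share in LFD and 2.52 times in HFD. In LFD, 4 of 7 genes were at least 2-fold higher in dendritic cells, where 7.73% of 4280 genes were. These were H2-Ab1, Cd74, H2-DMa and H2-DMb1. In HFD 6 of 7 were, where 6.48% of 6175 genes were. Below 2-fold in LFD were H2-Aa at 1.83 (1.74 to 1.94), H2-Eb1 at 1.71 (1.61 to 1.82) and Ciita. Ciita was below it in both libraries, with 62.4 CPM in LFD macrophages and 62.4 CPM in LFD dendritic cells, a ratio of 0.999 (0.482 to 1.87), and 37.1 and 51.4 CPM in HFD.

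B cells were few, 20 in LFD and 9 in HFD. Class II took 2.20% and 2.28% of their UMIs, a ratio of 1.04 (0.944 to 1.14). H2-Aa had 3653 and 3878 CPM and Cd74 had 11424 and 10549 CPM, so Cd74 stood high relative to the chains. Of the UMIs of Cd74, H2-Aa, H2-Ab1 and H2-Eb1 together, Cd74 took 54.2% in LFD and 48.4% in HFD B cells. It took 43.8% and 42.0% in dendritic cells and 41.8% and 41.9% in macrophages. The balance of H2-Aa to H2-Ab1 was near even in macrophages and dendritic cells, with H2-Aa at 53.7% and 52.5% of their sum in macrophages and 49.3% and 46.4% in dendritic cells.

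The classes that should lack class II had little. In fibroblasts it took 0.0125% of UMIs in LFD (375 cells) and 0.00365% in HFD (292 cells), and in endothelial cells 0.00324% (148 cells) and 0.00636% (204 cells). The LFD fibroblast value exceeded the HFD one at the level of counting, with Cd74 at 126 and 25 UMIs, but the direction turned with every barcode that met the class (log2 ratio 0.48). The highest single cell stood at 0.740% in LFD and 0.107% in HFD fibroblasts, and at 0.192% and 1.03% in endothelial cells. At least 1 class II UMI was found in 23.2% and 22.3% of fibroblasts and in 20.9% and 24.5% of endothelial cells. The part of such single cells and of free RNA from macrophages was not tested. T cells, added here as a further class without class II of its own in mice, stood at 0.465% in LFD (67 cells) and 0.0107% in HFD (21 cells). This difference rested on 3 LFD cells chosen after seeing the data for having over 1% class II, which held 1037 of the 1141 class II UMIs at a median of 14151 UMIs. The macrophage marker list stood at 741 CPM in these 3 cells and at 9.96 CPM in the other 64, which had 0.0518% class II. Without them the ratio of HFD to LFD was 0.206.

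The DM heterodimer genes differed in balance between the libraries. In summed counts, H2-DMb1 was the only member with at least 50 UMIs that was higher in HFD over all macrophages, with 290.4 CPM in LFD and 403 CPM in HFD, a ratio of 1.39 (1.24 to 1.56). Its α partner H2-DMa had 506 and 369 CPM, a ratio of 0.730 (0.664 to 0.803), although its log2 ratio was 0.27 with the limits of the methods. H2-DMb1 thus took 36.5% of the UMIs of the pair in LFD macrophages (33.7 to 39.3%) and 52.2% in HFD macrophages (50.1 to 54.3%). The same shift was present in resident-marker macrophages, at 35.7% and 50.5%, and in macrophages with neither marker, at 38.3% and 50.3%. In Cd9+ macrophages of the HFD library the share was 55.6%. Barcodes of no class had 36.5% (30.4 to 42.9%) and 50.9% (47.2 to 54.5%). Dendritic cells had 40.7% (35.3 to 46.3%) and 47.8% (44.2 to 51.4%), intervals that overlapped. In their Cd209a cells, H2-DMb1 and H2-DMa had 75 and 109 UMIs in LFD and 241 and 220 in HFD. In their Clec9a or Xcr1 cells, which did not show the shift, the 2 genes had 45 and 55 UMIs in LFD and 112 and 165 in HFD. A share within 1 pair does not depend on the scaling of a library. In macrophages it was 35.4% and 46.9% with the limits of the methods, and 35.8% and 51.0% with cells thinned to 1000 UMIs. B cells held 9 of 46 UMIs as H2-DMb1 in LFD and 1 of 16 in HFD, too few to compare. The difference was thus present beyond counting error in resident-marker macrophages, in macrophages with neither marker and in barcodes of no class. In dendritic cells it was smaller and the intervals overlapped. With 1 library for each diet, the diet and the library cannot be told apart.

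H2-DMb2, the second DM β chain gene, was low outside B cells and dendritic cells. It had 10 UMIs in LFD and 7 in HFD macrophages. In dendritic cells it had 108 CPM (19 UMIs) and 64.3 CPM (25 UMIs), a ratio of 0.597 (0.316 to 1.15). In B cells it had 175 CPM (15 UMIs) and 233 CPM (6 UMIs). Of the UMIs of both DM β genes, H2-DMb2 took 2.28% and 0.603% in macrophages, 12.7% and 6.44% in dendritic cells and 62.5% and 85.7% in B cells. The B cell shares rest on 24 and 7 UMIs, with intervals of 40.6 to 81.2% and 42.1 to 99.6%, and on the uncertain split of reads.

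H2-Oa, the DO α chain, was counted in 0 of 228 LFD and 0 of 315 HFD macrophages, which allows at most 2.04 and 1.05 CPM at 3 counts. In dendritic cells it had 96.4 CPM (17 UMIs) and 95.2 CPM (37 UMIs), a ratio of 0.987 (0.542 to 1.87). In B cells it had 175 CPM (15 UMIs) and 155 CPM (4 UMIs). H2-Ob, the DO β chain and no member of the chosen set, had 90.7 and 72.0 CPM in dendritic cells, 93.4 CPM (8 UMIs) and 271 CPM (7 UMIs) in B cells, and 13 and 4 UMIs in macrophages. Both DO chains were therefore found in dendritic cells and B cells, and at or near the limit of detection in macrophages. Both sets within the dendritic class carried H2-Oa in HFD, with 19 UMIs in the Cd209a cells and 18 in the Clec9a or Xcr1 cells.

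Ciita was sparse everywhere. In macrophages it had 92 UMIs in LFD (62.4 CPM) and 106 in HFD (37.1 CPM), a ratio of 0.594 (0.445 to 0.794), and 27.6% and 26.0% of macrophages had at least 1 UMI. With the limits of the methods its log2 ratio over all macrophages was 0.23. In resident-marker macrophages it had 57.5 CPM (45.2 to 72.2) and 21.8 CPM (15.4 to 30.1). In macrophages with neither marker it had 17 and 30 UMIs, in dendritic cells 11 and 20, and in B cells 2 and 0. In fibroblasts it had 0 and 1 UMIs. The highest CPM was in LFD macrophages with neither marker, at 110 CPM (63.9 to 176), an interval that overlapped those of dendritic cells in both libraries.

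A list of 21 other genes of the pathway was read beside the members. In resident-marker macrophages 16 had at least 50 UMIs, of which 4 were at most 0.5-fold in HFD and 1 was at least 2-fold higher, where 5.14% and 5.63% of all genes were. The 4 lower genes were Irf4 (ratio 0.310), a transcription factor, Irf1 (0.463), an interferon-induced factor that can activate Ciita, Cd86 (0.398), a costimulatory ligand, and March1 (0.464), a ubiquitin ligase that removes class II from the surface. The chains of the interferon-γ receptor went opposite ways, with Ifngr1 at a ratio of 0.641 (0.527 to 0.779) and Ifngr2 at 1.62 (1.23 to 2.15), and Spi1, a myeloid transcription factor, had 1.40 (1.23 to 1.59). Of the 4 genes of the lysosomal processing step, 3 were higher in HFD and Lgmn, an endopeptidase, was near 1, at 1.06 (0.994 to 1.14). Ctsl, a cathepsin, had 472 CPM in LFD and 2384 CPM in HFD, a ratio of 5.05 (4.63 to 5.50). Ctss, the cathepsin that trims the invariant chain, had a ratio of 1.70 (1.57 to 1.83), and Ifi30, a lysosomal thiol reductase, a ratio of 1.99 (1.75 to 2.27). The RFX subunit Rfx5 had 7 and 13 UMIs, too few to compare. Over all macrophages 17 of the 21 had at least 50 UMIs, with 3 at most 0.5-fold and 1 at least 2-fold higher, where 5.94% and 5.43% of all genes were. In macrophages with neither marker 11 did, with 0 and 3, against 3.07% and 5.39% of all genes, and in dendritic cells 7 did, with 0 and 0, against 1.13% and 2.60%.

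From cell to cell, the chain genes and Cd74 moved together. In resident-marker macrophages thinned to 1000 UMIs, Pearson's correlation of H2-Aa with H2-Ab1 was 0.719 over 202 LFD cells and 0.825 over 171 HFD cells, and with Cd74 it was 0.707 and 0.803. Correlations of H2-Aa with H2-DMa were 0.277 and 0.317, and with Ciita 0.136 and 0.177, at counts of mostly 0 or 1 UMI a cell. Among the chain genes and Cd74, correlations were weaker in macrophages with neither marker. They ran from 0.394 to 0.646 over 19 LFD cells and from 0.425 to 0.634 over 74 HFD cells. Cells of a class share 1 library, and these values are descriptions. Over 16 points (8 classes in 2 libraries), genes whose log CPM most resembled the mean of the H2-Aa, H2-Ab1, H2-Eb1 and Cd74 pattern, among 11353 genes, included Irf5 (Pearson's r 0.991), Pld4 (0.976), Ly86 (0.974), Itgam (0.969), Cd83 (0.965), Syk (0.963) and Ncf1 (0.959). Irf5 is an interferon regulatory factor and Itgam an integrin of myeloid cells. Of the other members, H2-DMa had 0.967 and H2-DMb1 0.904, Ciita 0.829, H2-DMb2 0.639 and H2-Oa 0.441. The points of 1 library share its depth and free RNA, and the ranked genes share high levels in myeloid classes and low levels in stromal ones.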

How the data were processed

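The authors made 10x Chromium 3′ libraries from a Miltenyi dissociation of epididymal fat and counted reads on mm10. The deposited values are counts of UMIs for each gene in each barcode, not normalized, and the table headers name Cell Ranger 3.0.2. Both tables were used whole, with 1 library for each diet. The genes, classes and gene lists were chosen with earlier results of these data known.

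Barcodes with at least 200 genes were kept and classed by the marker UMIs given above, with B cells at 2 UMIs or more of Cd79a and Cd79b, fibroblasts at 10 or more of Dcn, endothelial cells at 3 or more of Cdh5 and Cldn5, and T cells at 2 or more of Cd3d, Cd3e and Cd3g. Macrophages with both resident markers and Cd9 counted as resident-marker. Barcodes in several classes (24 in LFD, 36 in HFD) stood apart, and Scrublet calls were counted, not removed. UMIs were summed per class and divided by the class total. Levels have exact Poisson, shares exact Clopper-Pearson and ratios exact conditional binomial intervals at 95%. PCR copies are collapsed by UMI, but a cell's molecules are not independent samples. Named genes were the 9 members, the 21 companions and the genes of highest correlation over classes on log2(CPM + 10), some of which are not reported here. Correlations used cells thinned to 1000 UMIs, and detection is at full depth unless said to be thinned. Coordinates are from GENCODE M21, promoters from RefSeq. Python 3.11.15, numpy 2.4.6, pandas 2.3.3, scipy 1.17.1 and scanpy 1.11.5 were used, and the ratio code was tested on simulated data. Alternatives were the limits of the methods (200 to 2500 genes, under 5% mitochondrial UMIs), every barcode, per-cell means, thinning, median-ratio scaling and other marker and count thresholds.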

Additional observations from a re-analysis of the deposited data

Results flagged for a closer look

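Class II levels of the macrophage subclasses went in opposite directions between the diets. The log2 ratio of HFD to LFD was -1.15 in resident-marker macrophages (203 and 171 cells) and 0.24 in macrophages with neither marker set (23 and 75 cells). With 1 library for each diet, this difference between the subclasses was not tested. The opposite direction was lost with the limits of the methods, where macrophages with neither marker stood at -0.0049, and was smaller as a mean of per-cell values, at 0.042. Cd9+ macrophages stood at -0.23 with 2 LFD cells.

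Barcodes that met no class rule also carried class II mRNA, 0.951% of UMIs in LFD (164 barcodes) and 1.97% in HFD (186 barcodes), far above the fibroblast values of 0.0125% and 0.00365%. Of these, 26 in LFD and 74 in HFD had over 1% class II, a threshold chosen after seeing the data, with medians of 2130.5 and 4666 UMIs. In these barcodes the macrophage marker list stood at 736 and 764 CPM, the monocyte list at 834 and 1088 CPM (999 and 1108 CPM in T cells, 887 and 1474 CPM in B cells) and the dendritic list at 778 and 726 CPM, and Lyz1 at 3175 and 950.0 CPM and Il1b at 1112 and 1385 CPM were among the leading genes. They were given no name.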

How the results depend on the processing

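Of 348 values recomputed under alternatives, 232 moved by less than their counting interval or kept a like count, 97 moved by more, some of them across 0 where the reported interval held 0, and 19 reversed. Where a value moved, the cause was not tested. All values here are log2 ratios of HFD to LFD unless stated. In macrophages (-0.37 as reported) the class II total was 0.097 with the limits of the methods, -0.33 with every barcode, -0.029 as a mean of per-cell values and 0.015 with thinning. In resident-marker macrophages (-1.15) these gave -0.57, -1.09, -0.80 and -0.77, with a resident sum of at least 5 UMIs -1.27, and, added after seeing the data, -0.96 without Cd9, -0.77 without cells of 10000 UMIs or more and -0.28 without Trem2. In macrophages with neither marker (0.24) it was -0.0049 with the limits, 0.042 per cell and 0.18 with median-ratio scaling. In dendritic cells (-0.027) it was -0.11 with the limits, 0.37 with every barcode, 0.33 per cell, 0.16 with thinning and -0.096 with median-ratio scaling. Cd9+ over neither-marker macrophages in HFD (-0.68) gave -0.065, -0.75, -0.32 and -0.29 in the order first used, -0.72 with at least 2 Cd9 UMIs, -0.80 with a resident sum of at least 5 and, added after seeing the data, -1.30 with every macrophage that had Cd9. Single members reversed in macrophages with the limits (H2-Aa 0.13, H2-Ab1 0.21, H2-Eb1 0.041, Cd74 0.016, H2-DMa 0.27, Ciita 0.23), with thinning (H2-Aa 0.022, H2-Ab1 0.090, H2-Eb1 0.043) and per cell (H2-Ab1 0.062). Cd74 reversed in macrophages with neither marker (-0.22 with the limits, -0.013 per cell) and in dendritic cells (0.30 with every barcode, 0.27 per cell, 0.093 with thinning), and the fibroblast total reversed with every barcode (0.48). Genes at least 2-fold higher in macrophages numbered 386 at a floor of 50 UMIs, 637 at 20 and 1343 at 1, and those at most 0.5-fold 422, 698 and 2123. In resident-marker macrophages these were 341, 596 and 1983, and 311, 593 and 2211. B cells and T cells gave no value under the limits of the methods. No paired analysis was possible because each diet had 1 library.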
